A study of Mus musculus with 6 samples.

Results

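The genes described here are 10 genes of melanin pigment formation, Tyr, Tyrp1, Dct, Pmel, Mlana, Mitf, Slc45a2, Oca2, Gpr143 and Slc24a5, chosen by name from the 52636 genes of the count table. They were read in 25428 cells of 8 annotated cell types from cultured mouse choroid, the vascular layer behind the retina, which was dissected together with the retinal pigment epithelium (RPE). The donors were C57BL/6J males, aged 12 to 16 months, in 3 samples labelled Dram2 WT and 3 samples labelled Dram2 KO. The knockout is constitutive, made by CRISPR/Cas9 deletion of exon 4 of Dram2, and no Cre or transgene is involved. After removal of the retina the tissue was dissociated and kept in culture for 7 days before single-cell RNA sequencing, so the cells are cultured cells and not fresh tissue, and the culture is shared by both genotypes. Per the labels, Dram2 KO replicate 3 was the only sample of batch 2 and the other 5 samples were batch 1. Whether a sample held 1 or more animals was not given in the sources used here, so the p-values measure the spread between these 6 samples.

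Melanin is made inside melanosomes, organelles related to lysosomes. Pmel builds the fibrils on which pigment is laid down, Mlana (MART-1) helps to process Pmel, and the 3 enzymes Tyr (tyrosinase), Tyrp1 and Dct turn tyrosine into eumelanin, with Tyr catalysing the rate-limiting step. Slc45a2, Oca2 and Slc24a5 are membrane transporters or channels that tune the ionic milieu of the melanosome, Gpr143 is a receptor of the melanosome membrane that limits organelle size, and Mitf is the transcription factor that drives many of these genes. RPE cells of the mouse make most of their pigment around birth, and melanocytes, which also lie in the choroid, share the same enzymes and transcription factor.

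Mitf binds E-box sequences, and the motif TCATGTG, known as the M-box, is a form of them found upstream of pigment genes. The data measure Mitf and pigment genes in the same cells. Of the promoters listed for the pigment genes, those of the 4 genes with the full motif are printed below. These promoters were picked for the match, so the shares of all promoters given after them are no test. They were taken from RefSeq on GRCm38.p6, from 250 bases before to 50 bases after the annotated start, and capitals mark each match to TCATGTG on either strand, where CACATGA is the same motif read on the other strand. The promoter of Tyr, the gene for tyrosinase, is chr7:87493463-87493762 on the minus strand and holds 1 match, which begins at position -22 relative to the start. That of Tyrp1 is chr4:80833963-80834262 on the plus strand, with 1 match at -47. That of Dct is chr14:118052197-118052496 on the minus strand, with 2 matches at -232 and -151. That of Slc24a5 is chr2:125067877-125068176 on the plus strand, with 1 match at -13.
Tyr: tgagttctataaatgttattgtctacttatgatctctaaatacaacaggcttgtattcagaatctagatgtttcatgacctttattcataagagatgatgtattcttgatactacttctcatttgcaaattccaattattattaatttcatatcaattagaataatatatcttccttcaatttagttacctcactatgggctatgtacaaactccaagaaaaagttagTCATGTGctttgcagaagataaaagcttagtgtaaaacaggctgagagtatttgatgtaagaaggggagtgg
Tyrp1: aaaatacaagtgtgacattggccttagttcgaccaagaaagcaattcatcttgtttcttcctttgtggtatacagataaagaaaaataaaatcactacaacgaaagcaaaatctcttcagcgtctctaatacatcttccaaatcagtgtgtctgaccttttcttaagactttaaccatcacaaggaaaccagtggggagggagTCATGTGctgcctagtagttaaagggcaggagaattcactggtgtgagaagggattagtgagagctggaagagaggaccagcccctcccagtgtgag
Dct: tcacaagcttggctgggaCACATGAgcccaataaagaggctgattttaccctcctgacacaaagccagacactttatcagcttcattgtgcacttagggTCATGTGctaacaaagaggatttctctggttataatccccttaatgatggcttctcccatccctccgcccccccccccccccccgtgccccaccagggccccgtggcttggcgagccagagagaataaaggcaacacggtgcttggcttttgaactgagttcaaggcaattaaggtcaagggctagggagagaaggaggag
Slc24a5: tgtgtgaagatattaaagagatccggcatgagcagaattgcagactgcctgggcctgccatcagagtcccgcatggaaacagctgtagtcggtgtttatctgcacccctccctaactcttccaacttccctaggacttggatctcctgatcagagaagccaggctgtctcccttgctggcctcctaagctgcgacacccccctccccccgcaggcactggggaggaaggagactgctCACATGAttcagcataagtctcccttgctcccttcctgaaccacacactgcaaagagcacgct

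Of 32851 promoters of the same length, 3.772% held TCATGTG on either strand and 14.155% held its core CATGTG, which every TCATGTG contains, while 7.15% held the palindromic E-box CACGTG. The Oca2 promoter (chr7:56239509-56239808, plus strand) held the core CATGTG at -186 on the other strand without the full M-box, and the 3 listed Mitf promoters held none of the 3 motifs. Promoters of Pmel, Mlana, Slc45a2 and Gpr143 were not analysed here. A match describes letters in these windows and not a bound site.

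The samples held 96808998 to 122746184 UMIs each (unique molecular identifiers, each standing for 1 captured RNA molecule), but differed in depth per cell, with a median of 16453 to 47373 UMIs over all cells and of 12559 to 33968.5 UMIs over RPE cells. Dram2 itself was at 37.1 ± 3.23 CPM (the UMI count scaled to library size; SD, n = 3) in the Dram2 WT samples and at 29.7 ± 1.26 CPM (n = 3) in the Dram2 KO samples. Since 3′ tags mostly lie outside the deleted exon, this level does not check the deletion.

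The RPE type held 1492 cells with a median near 22905.5 UMIs. Its size differed widely between samples, with 56, 539 and 152 cells in Dram2 WT replicates 1, 2 and 3 and 68, 102 and 575 cells in Dram2 KO replicates 1, 2 and 3. Dram2 WT replicate 2 and Dram2 KO replicate 3 therefore gave most of the RPE cells, and these 2 samples also differed from the other 4 in their markers. The summed level of 11 RPE markers was 578 CPM in the former and 356 CPM in the latter, against 965 to 1187 CPM in the other 4 samples. The summed level of the proliferation markers Mki67 and Top2a was 175 and 285 CPM in the same 2 samples, against 25.1 to 61.5 CPM in the others. Over all RPE cells Krt18, an epithelial keratin, was at 473 CPM and Otx2, a transcription factor of the RPE, at 74.1 CPM, while Rpe65, the visual cycle isomerase of mature RPE, was at 0.43 CPM. The 6 melanocyte and neural crest markers Sox10, Mc1r, Ednrb, Kit, Pax3 and Mcoln3 were at 1.79, 0.731, 0.706, 0.10, 0.10 and 0 CPM in these cells, and together at 1.63 to 7.45 CPM in single samples. The part of such cells in the levels of the pigment genes was not tested.

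Most of the 10 genes were nearly confined to the RPE type at low levels. RPE cells made up a small part of each sample, between 1.46% and 14.8% of its cells, yet held 102 of the 106 UMIs of Tyr, 57 of the 60 UMIs of Dct, 30 of the 32 UMIs of Oca2 and 215 of the 241 UMIs of Mlana. They also held 75 of the 96 UMIs of Slc45a2 and 19 of the 24 UMIs of Tyrp1. The other 4 genes did not follow this pattern, since RPE cells held 37 of the 77 UMIs of Gpr143, 7633 of the 28279 UMIs of Slc24a5, 233 of the 1909 UMIs of Mitf and 11 of the 233 UMIs of Pmel. The cell types come from clusters of these same cells, so the differences between types are a description with no test.

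**Figure D1:**
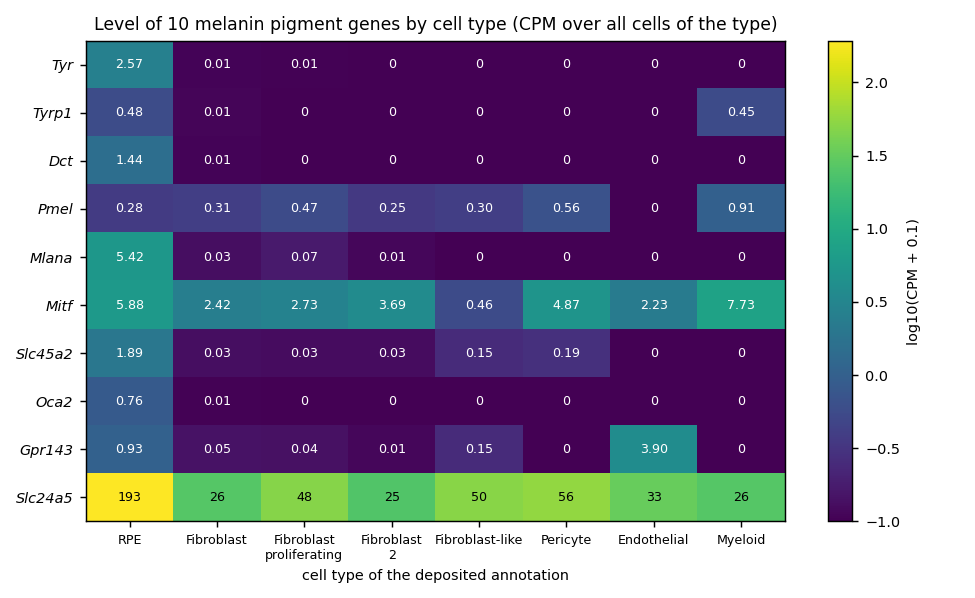
Heatmap of the level of each of the 10 pigment genes (rows) in each of the 8 annotated cell types (columns), pooled over the 6 samples; each cell of the map is printed with its CPM and shaded on a log scale. Tyr, Dct, Mlana, Slc45a2 and Oca2 stand out in the RPE column, whereas Mitf and Slc24a5 have UMIs in every type and the pooled Pmel values of RPE (0.277 CPM) and Fibroblast (0.310 CPM) lie close together.

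Among the enzymes, Tyr (ENSMUSG00000004651, chromosome 7, 87424771 to 87493512) was at 2.57 CPM in RPE cells and at 0.00647 CPM over the 4 fibroblast types together, a 398-fold ratio that rests on 4 UMIs in the fibroblast types. Dct (ENSMUSG00000022129, chromosome 14, 118012790 to 118052244) was at 1.44 CPM in RPE cells, with its other 3 UMIs in Fibroblast cells. Tyrp1 (ENSMUSG00000005994, chromosome 4, 80834123 to 80851719) was at 0.479 CPM in RPE cells, with 4 further UMIs in Fibroblast cells and 1 in Myeloid cells. None of these enzymes gave a UMI in the 288 Endothelial, 3019 Fibroblast 2, 1121 Fibroblast-like or 308 Pericyte cells, which allows up to 0.835, 0.0448, 0.455 and 0.562 CPM in these types for counting error only.

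The transporters Slc45a2 and Oca2 also had most of their UMIs in RPE cells. Slc45a2 (ENSMUSG00000022243, chromosome 15, 11000721 to 11029233) was at 1.89 CPM in RPE cells and at 0.0323 CPM over the fibroblast types (20 UMIs), a 58.5-fold ratio, with 1 further UMI in a Pericyte cell. Oca2 (ENSMUSG00000030450, chromosome 7, 56239760 to 56536518) was at 0.757 CPM in RPE cells, and 2 Fibroblast cells held its remaining 2 UMIs. Mlana (ENSMUSG00000024806, chromosome 19, 29697824 to 29708634), which works on the melanosome matrix, was at 5.42 CPM in RPE cells and at 0.0421 CPM over the fibroblast types (26 UMIs), a 129-fold ratio.

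Pmel (ENSMUSG00000025359, chromosome 10, 128704195 to 128720238), the fibril protein of the melanosome, ranked sixth of the 8 types in RPE cells by the level pooled over samples. Its pooled level was 0.277 CPM in RPE, 0.310 CPM in Fibroblast and 0.471 CPM in Fibroblast proliferating cells, and these differ little against the 11 UMIs behind the RPE value. The order turned by sample, since Pmel was above its Fibroblast level in the RPE cells of 4 of 6 samples, and the pooled value leans on Dram2 KO replicate 3 (0.181 CPM in RPE and 0.552 CPM in Fibroblast cells). The sample means were 0.325 CPM in RPE against 0.266 CPM in Fibroblast cells for Dram2 WT and 0.449 against 0.373 CPM for Dram2 KO, so RPE was not separated from Fibroblast in either direction. The 3′ end of Pmel shares 105 bases with the antisense gene Dgka, a diacylglycerol kinase. Whether counting used the strand was not given in the sources used here. It is therefore not known whether reads of the pair were kept apart in that stretch. The ratio of Pmel to Dgka UMIs was 0.0775 in RPE and between 0 and 0.1 in the other types.

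Gpr143 (ENSMUSG00000025333, chromosome X, 152781921 to 152808646), the melanosomal receptor, was higher in Endothelial cells (3.90 CPM) than in RPE cells (0.933 CPM). The endothelial level rested on 14 UMIs in 10 cells. By sample it was 3.51, 2.20 and 2.98 CPM in Dram2 WT replicates 1, 2 and 3 (4, 1 and 2 UMIs) and 14.4, 2.15 and 0 CPM in Dram2 KO replicates 1, 2 and 3 (6, 1 and 0 UMIs). So 5 of the 6 samples had an endothelial UMI of Gpr143, from 23 to 92 endothelial cells in those samples. No endothelial cell held a UMI of Tyr, Dct, Mlana, Slc45a2, Oca2 or Tyrp1.

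Mitf (ENSMUSG00000035158, chromosome 6, 97807052 to 98021349), the transcription factor, was measured in all 8 types. It was at 5.88 CPM in RPE, 7.73 CPM in Myeloid (17 UMIs), 4.87 CPM in Pericyte (26 UMIs), 3.69 CPM in Fibroblast 2, 2.73 CPM in Fibroblast proliferating, 2.42 CPM in Fibroblast, 2.23 CPM in Endothelial and 0.455 CPM in Fibroblast-like cells. Over single samples Mitf ranged from 2.84 to 12.4 CPM in RPE, which spans the levels of Pericyte and Myeloid cells, so these neighbours in the order did not differ beyond their spread. Mitf is known for roles in myeloid cells such as osteoclasts and mast cells as well as in pigment cells. UMI counts of the 3′ end do not separate the promoter forms of Mitf, which share their last exons.

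Slc24a5 (ENSMUSG00000035183, chromosome 2, 125068124 to 125088677), a potassium-dependent sodium and calcium exchanger, was at 193 CPM in RPE and at 24.8 to 56.1 CPM in the other 7 types. Its 3′ end overlaps Myef2, a gene of an RNA-binding protein on the opposite strand. The 2 genes share 921 exonic bases, which include all of the last 500 bases of Slc24a5 where 3′ tags fall, and whether reads were assigned by strand was not given in the sources used here. Outside RPE the 2 genes ran together. In 40 sums of 1 sample and 1 type other than RPE, the ratio of Slc24a5 to Myef2 UMIs was 0.401 to 1.00 with a median of 0.576, and the levels had a Pearson r of 0.848 on the log2(CPM + 1) scale, a description over sums that share samples and cell types. In the 6 RPE sums the ratio was 2.06 to 4.14 with a median of 3.15. The Pearson r of the 2 genes over these 6 sums alone was -0.863 on the same scale, the opposite sign. The RPE ratios did not overlap those of the other types, while Myef2 itself was at 76.7 CPM in RPE, inside its range of 43.3 to 93.5 CPM in the other types. How many of the Slc24a5 UMIs outside RPE came from Myef2 RNA was not tested.

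**Figure D2:**
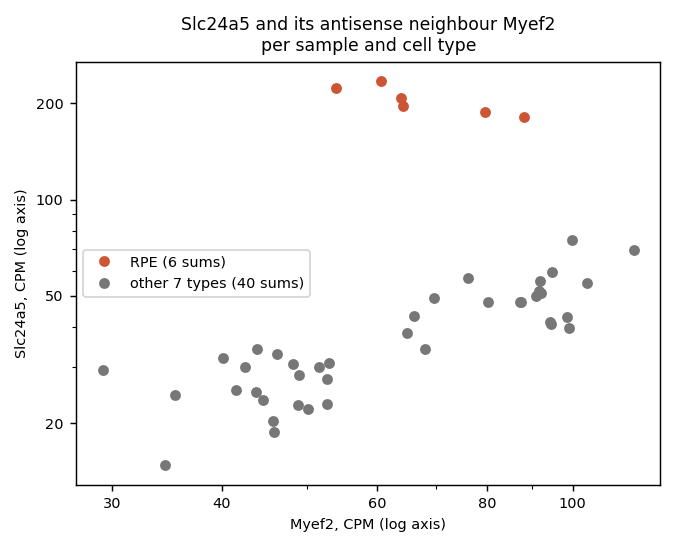
Level of Slc24a5 (y axis, CPM, log scale) against the antisense neighbour Myef2 (x axis, CPM, log scale), with 1 point for each sum of 1 sample and 1 cell type with 10 or more cells (6 RPE sums, 40 others). The 6 RPE points lie above the band formed by the other types, at a ratio of 2.06 to 4.14 against 0.401 to 1.00.

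Because Slc24a5, at 193 CPM, gave most of the UMIs of the 10 genes in RPE cells, a sum over 7 genes was also formed without Slc24a5, Pmel and Mitf. This choice was made after the values were seen. Slc24a5, Pmel and Mitf were also the genes with the lowest shares of their UMIs in RPE cells (27.0%, 4.72% and 12.2%). Differences between RPE and the other types in the 7 genes therefore follow in part from the choice. In the RPE cells of Dram2 WT replicates 1, 2 and 3 the 7 genes summed to 20.9, 12.7 and 25.9 CPM, and in Dram2 KO replicates 1, 2 and 3 to 26.0, 23.7 and 6.22 CPM (19.2 ± 8.04 CPM over the 6 samples). The low samples were the 2 with the most RPE cells and the lowest RPE markers. The sum of all 10 genes was 233 ± 30.01 CPM.

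Within the RPE type the level of most pigment genes differed between cells with and without UMIs of 3 RPE markers. After each cell was thinned to 8000 UMIs, 586 RPE cells had 2 or more UMIs of Krt8, Krt18 and Otx2, 387 had none, and 169 had 1 and lay at the boundary. The 7 genes summed to 20.4 CPM in the marker-detected cells and to 3.57 CPM in the marker-undetected cells (423 and 42 UMIs). Mlana was at 8.54 against 0.595 CPM, Slc45a2 at 3.14 against 0.255 CPM, Dct at 2.12 against 0.255 CPM and Tyr at 3.72 against 1.19 CPM. Oca2 had 27 UMIs in the marker-detected cells and 0 in the marker-undetected cells, so it was at least 5.11-fold higher in the former against a floor of 3 counts over the class. Tyrp1 went the other way on few counts, with 6 UMIs (0.290 CPM) against 10 UMIs (0.850 CPM). Mitf was at 7.91 against 2.97 CPM and Slc24a5 at 221 against 136 CPM. Sox10, a melanocyte and neural crest marker, moved with the pigment genes, at 2.80 against 0.170 CPM (58 and 2 UMIs), and its part in these differences was not tested. These values pool samples that differ in level and in their share of each class.

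Of the 387 marker-undetected cells, 105 came from Dram2 WT replicate 2 and 263 from Dram2 KO replicate 3, and the other 4 samples held 1 to 8 each. Within Dram2 WT replicate 2 the 7 genes summed to 18.6 CPM in marker-detected and 4.30 CPM in marker-undetected cells, and within Dram2 KO replicate 3 to 12.4 and 2.84 CPM. For Mitf the gap within these samples was smaller than in the pooled cells, at 5.98 against 3.31 CPM in Dram2 WT replicate 2 and 3.102 against 2.47 CPM in Dram2 KO replicate 3. In the marker-detected cells alone the sum was 24.4, 18.6 and 28.2 CPM in the Dram2 WT replicates and 25.9, 23.5 and 12.4 CPM in the Dram2 KO replicates. The marker-undetected cells kept Lhx2, a transcription factor of the eye field and RPE, at 107 CPM against 110 CPM in the marker-detected cells. They had more Pax6, another eye-field factor, with 140 against 17.3 CPM, and this gap was also present within Dram2 WT replicate 2 (131 against 13.2 CPM) and Dram2 KO replicate 3 (155 against 47.6 CPM). Top2a, a marker of dividing cells, was at 211 against 93.7 CPM in the pooled cells, but at 160 against 121 CPM within Dram2 WT replicate 2 and 243 against 168 CPM within Dram2 KO replicate 3. Sox10 was at 1.94 CPM (11 UMIs) against 0 UMIs within Dram2 WT replicate 2 and at 1.09 against 0.124 CPM (6 and 1 UMIs) within Dram2 KO replicate 3. These classes were cut from the cells' own UMIs, and no test was made between them.

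**Figure D3:**
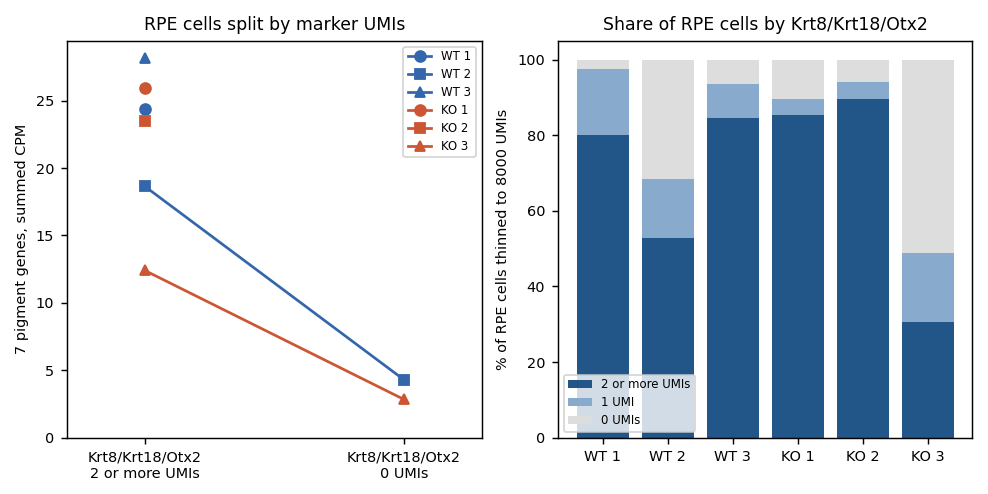
RPE cells grouped by the UMIs of Krt8, Krt18 and Otx2 after thinning to 8000 UMIs. Lines join the classes within a sample, and the marker-undetected class is drawn only where it held 10 or more cells, Dram2 WT replicate 2 (18.6 to 4.30 CPM) and Dram2 KO replicate 3 (12.4 to 2.84 CPM for the sum of 7 pigment genes, left y axis). Stacked bars on the right give the percent of each sample's thinned RPE cells in each class.

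The genotype comparison asked whether the pigment genes differ in RPE cells without Dram2. With voom-limma on UMI counts summed over the RPE cells of each sample and Benjamini-Hochberg adjustment over all genes, 0.0% of the 12333 genes tested were called at an adjusted p under 0.05, and of the 5 pigment genes that passed the filter on low counts (Tyr, Slc45a2, Mlana, Mitf and Slc24a5) 0 were called. Without adjustment 573 genes had p under 0.05. DESeq2 called 0.162% of the genes, 0 of them pigment genes, and edgeR called 0.

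Tyr, the rate-limiting enzyme, was at 2.48, 3.75 and 5.0003 CPM in Dram2 WT replicates 1, 2 and 3 (5, 43 and 23 UMIs) and at 3.16, 2.32 and 1.03 CPM in Dram2 KO replicates 1, 2 and 3 (9, 5 and 17 UMIs). Only Dram2 KO replicates 2 and 3 lay below all Dram2 WT samples, and the groups overlapped. The log2 fold change was -1.42 ± 0.48 (SE) with an adjusted p of 0.865 in voom-limma and an unadjusted p of 0.0203. It was -0.33 without Dram2 KO replicate 3, the sample of batch 2, and -0.34 with batch as a covariate, so the difference of that size rested on this sample. These fits are not separate checks, since the batch term covers that sample alone. In the marker-detected RPE cells alone Tyr was at 3.21, 5.45 and 5.53 CPM in the Dram2 WT and 3.19, 2.67 and 1.46 CPM in the Dram2 KO replicates (5, 31 and 20 against 8, 5 and 8 UMIs), so the groups did not overlap there, although the nearest samples were all but equal.

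Dct, which acts after tyrosinase, was at 2.48, 1.57 and 2.61 CPM in the Dram2 WT replicates (5, 18 and 12 UMIs) and at 1.40, 1.39 and 0.905 CPM in the Dram2 KO replicates (4, 3 and 15 UMIs). Every Dram2 KO sample lay below every Dram2 WT sample, at group means of 2.22 ± 0.567 and 1.23 ± 0.285 CPM (SD, n = 3 each). Of 15656 genes with a UMI in each RPE sum, 5.26% had all Dram2 KO samples below all Dram2 WT samples and 2.51% the reverse, and of the 10 pigment genes 1 and 0 did so. Dct did not pass the filter on low counts, and with no filter its log2 fold change was -0.80 ± 0.48 (SE) with an adjusted p of 0.994 in voom-limma. The authors' single-cell data of mouse retina, from the same knockout, list Dct with the opposite direction, higher in Dram2 KO RPE cells. Those RPE cells were few and came along with the retina, not from cultured choroid, so the results are not like for like. In the marker-detected cells Dct was at 2.57, 2.81 and 2.76 CPM in the Dram2 WT and 1.59, 1.602 and 1.28 CPM in the Dram2 KO replicates (4, 16 and 10 against 4, 3 and 7 UMIs). Tyr and Dct were the 2 pigment genes with every Dram2 KO below every Dram2 WT sample in these cells, where 6.44% of 14931 genes with a UMI in each sample had that order and 2.85% the reverse, and neither passed the filter on low counts there. Tyrp1 was at 0.994, 0.523 and 0.217 CPM in Dram2 WT and 0.351, 0.464 and 0.483 CPM in Dram2 KO replicates, from 1 to 8 UMIs each, and the groups overlapped.

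Mlana was at 8.45, 4.45 and 10.0 CPM in the Dram2 WT replicates and at 13.3, 13.0 and 2.11 CPM in the Dram2 KO replicates. The Dram2 KO group held both the highest samples and the lowest one, and the log2 fold change of -0.67 ± 0.76 turned to 1.19 without Dram2 KO replicate 3. Pmel gave 1 to 3 UMIs per sample, at 0.217 to 0.497 CPM in Dram2 WT and 0.181 to 0.702 CPM in Dram2 KO samples. Gpr143 was at 1.99, 0.872 and 1.09 CPM in the Dram2 WT and 2.81, 0.464 and 0.543 CPM in the Dram2 KO replicates, again with overlap.

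Slc45a2 was at 1.49, 1.13 and 4.13 CPM in the Dram2 WT replicates and at 4.56, 5.11 and 0.966 CPM in the Dram2 KO replicates. Its log2 fold change was -0.11 ± 0.80 (SE), and 1.61 without Dram2 KO replicate 3. Oca2 was at 2.98, 0.436 and 2.83 CPM (6, 5 and 13 UMIs) in the Dram2 WT and 0.351, 0.929 and 0.181 CPM (1, 2 and 3 UMIs) in the Dram2 KO replicates. The higher Oca2 values were those of Dram2 WT replicates 1 and 3, and Dram2 WT replicate 2 lay inside the Dram2 KO range. With no filter its log2 fold change was -1.59 ± 0.95 with an adjusted p of 0.994 in voom-limma. Slc24a5 was at 235, 181 and 195 CPM in the Dram2 WT and 208, 223 and 188 CPM in the Dram2 KO replicates, a log2 fold change of 0.05 ± 0.17 on 3451 and 4182 UMIs. Mitf was at 12.4, 4.62 and 11.5 CPM in the Dram2 WT and 10.5, 11.6 and 2.84 CPM in the Dram2 KO replicates, a log2 fold change of -0.65 ± 0.65 that turned to 0.75 without Dram2 KO replicate 3. The lowest Mitf and Mlana values in each genotype belonged to the 2 samples with the most RPE cells and the most marker-undetected cells, whose part in the genotype comparison was not tested beyond the fits without them.

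**Figure D4:**
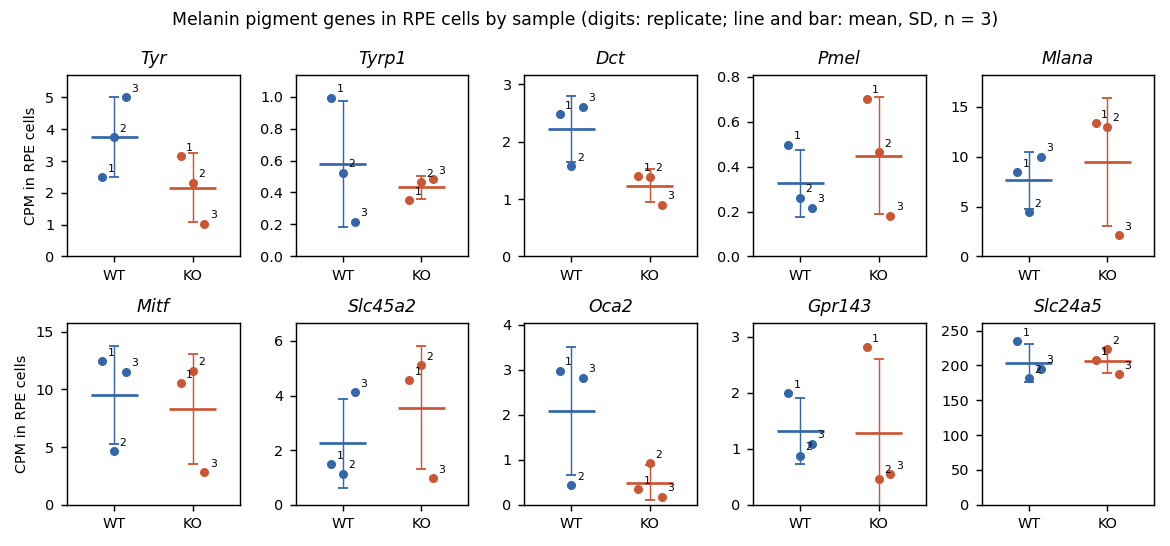
Level of each of the 10 pigment genes in the RPE cells of each sample (y axis, CPM, linear and starting at 0, 1 panel per gene), with Dram2 WT and Dram2 KO samples as points and bars for the mean and SD of 3 samples. Apart from Dct, whose 3 Dram2 KO samples (0.905 to 1.40 CPM) lie below the 3 Dram2 WT samples (1.57 to 2.61 CPM), the points of both genotypes overlap; the lower error bar of Gpr143 in Dram2 KO runs below 0 and is cut by the axis.

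Summed over all cells of a sample, where fewer RPE cells and less RNA per RPE cell cannot be told apart, the pigment genes also showed no call. Of 22580 genes 0.0% were called by voom-limma (1583 at an unadjusted p under 0.05) and 1.67% by DESeq2, with 0 of 8 pigment genes tested in both, and their log2 fold changes ran from -0.77 (Dct) to 0.32 (Slc45a2) with a lowest adjusted p of 0.920. Mitf, at 2.85 ± 0.302 CPM in Dram2 WT and 2.86 ± 0.0176 CPM in Dram2 KO samples, had a log2 fold change of 0.03 ± 0.14. In the other 7 types Slc24a5, Mitf and Pmel could be tested 12 times in all, with log2 fold changes of -0.10 to 0.84 and a lowest adjusted p of 0.851 in voom-limma, and 0 were called. The value of 0.84 was that of Slc24a5 in Myeloid cells, where 2 samples of each genotype held 10 or more cells. The share of all genes called by voom-limma in these types was 0.0% in Endothelial and Fibroblast-like, 0.00503% in Fibroblast, 0.0118% in Pericyte, 0.0296% in Myeloid, 0.222% in Fibroblast 2 and 0.624% in Fibroblast proliferating cells.

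In single RPE cells the pigment genes were detected in few cells. In 1142 RPE cells thinned to 8000 UMIs of the 1492, the shallower ones being left out, a UMI of Mlana was found in 2.80%, of Tyr in 2.63%, of Oca2 in 0.701% and of Tyrp1 in 0.613% of cells, against 0.0257%, 0.00857%, 0 and 0 of 11663 Fibroblast cells at the same depth. The count of 0 in those Fibroblast cells limits cells with a UMI at this depth to 0.0257% for counting error only, and not cells that express the gene, since 4 Tyrp1 and 2 Oca2 UMIs were present in Fibroblast cells before thinning. Fibroblast cells, which should lack pigment enzymes, here give the background share, and their median depth before thinning was 26108 UMIs against 22905.5 in RPE cells. A Mitf UMI was found in 4.99% of RPE and 1.79% of Fibroblast cells, and a Slc24a5 UMI in 68.7% and 19.0%. For Pmel the shares were 0.175% and 0.257%, so the RPE share was not above that of Fibroblast cells. Without thinning the mean share over the 6 samples rose to 13.6% ± 7.12 (SD) for Mlana from 5.04% ± 2.81, and to 8.05% ± 4.25 for Tyr from 2.64% ± 1.88, so these shares depend on depth.

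Any of the 7 genes was seen in 268 of the 1492 RPE cells without thinning (18.0%) and in 98 of 1142 at 8000 UMIs (8.58%). Of the 268 cells, 183 had 1 of the 7 genes, 51 had 2, 28 had 3, 5 had 4 and 1 had 5. Cells with more of the genes were deeper, with a median of 20526.5 UMIs for cells with none, 32877 with 1 and 45355 with 2. At 8000 UMIs, 11 RPE cells (0.963%) had 2 of the 7 genes, and no cell of the other 7 types did, with or without thinning. In those types any of the 7 genes was seen in only 0.132% (Fibroblast 2) to 3.47% (Endothelial) of cells without thinning. The 7 genes were also chosen with their levels by type known, so the absence of such cells there is no separate result. Of all 10 genes, which include Slc24a5 with a UMI in 70.3% ± 3.68 of cells, 2 or more were detected in 15.5% ± 6.48 of RPE cells (SD, 6 samples).

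Detection of more than 1 of the 7 genes in a thinned cell was rare, and the shares below rest on few cells and were not tested. Of 32 thinned RPE cells with a Mlana UMI, 8 (25.0%) also had a UMI of another of the 7 genes, against 5.95% of the 1110 cells without. This share was higher with Mlana than without in 4 of the 6 samples, and 4 of the 8 cells came from Dram2 WT replicate 3. For Slc45a2 these values were 5 of 13 cells (38.5%) against 7.53%, for Tyr 4 of 30 (13.3%) against 6.12%, and for Oca2 0 of 8 against 7.94%. Tyrp1, Dct and Gpr143 gave 2, 2 and 1 such cells. By sample the share was higher with Slc45a2 than without in 4 of the 5 samples that had cells with it, but with Tyr in 2 of 5 and with Dct in 2 of 5. The pair seen together in 4 thinned cells was Mlana and Slc45a2. Without thinning 31 cells held both Tyr and Mlana, 35.2% of the 88 cells with Tyr and 26.3% of the 118 with Mlana. A UMI of 1 of the 7 genes was present in 15.8% of 57 cells with Mitf and 8.20% of cells without it, and in 9.68% of 785 cells with Slc24a5 and 6.16% of those without. For both genes 2 of the 6 samples had the opposite order, Dram2 WT replicate 3 and Dram2 KO replicate 2 for Mitf and Dram2 WT replicate 3 and Dram2 KO replicate 1 for Slc24a5. These shares pool cells of all samples and are a description. Sample and RPE marker level moved with them: 71.4% of the 98 cells with 1 of the 7 genes and 49.4% of the other 1044 had 2 or more UMIs of Krt8, Krt18 and Otx2. This pooled gap was not shared by all samples, since in Dram2 WT replicate 3 the values were 73.7% and 86.5%, and in Dram2 KO replicate 1 they were 87.5% and 85.0%. Sox10 was found in 4.08% and 1.05% of the same cells. Those whose Mki67 and Top2a counts added up to at least 2 UMIs made up 10.2% and 29.1%.

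To see what else differed in pigment-expressing RPE cells, UMIs were summed per sample over RPE cells with 1 or more UMIs of the 7 genes and over cells with none, classes being set at 8000 UMIs and all UMIs of those cells then summed. The pigment-detected class held 5, 31 and 19 cells in the Dram2 WT and 8, 11 and 24 cells in the Dram2 KO replicates. With sample as a block and the 10 genes left out, voom-limma called 2.42% of 9506 genes higher (230) and 1.08% lower (103) in pigment-detected cells. edgeR called 282 and DESeq2 209 genes. Without Dram2 WT replicate 2 the count was 80, without Dram2 WT replicate 3 it was 198 and without Dram2 KO replicate 3 it was 194.

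Some listed genes of the melanosome were among those higher in pigment-detected cells. The pathway lists were chosen with earlier results of these data known, so the counts and medians by list are a description. Of 23 genes listed for melanosome formation and cargo 19 were tested, of which 3 were higher and 0 lower, with a median log2 fold change of 0.21 against 0.03 over all genes tested. Gpnmb, a melanosomal glycoprotein related to Pmel, was at 190 CPM in pigment-detected and 107 CPM in the other cells and rose in 6 of 6 samples, by 0.98 ± 0.13 (log2, SE; adjusted p = 0.00449, voom-limma). Cd63, a tetraspanin that sorts Pmel, rose by 0.34 ± 0.07 (adjusted p = 0.0129, voom-limma; 6 of 6 samples), and Apoe, a lipoprotein also used in fibril formation, by 0.75 ± 0.18 (adjusted p = 0.0305, voom-limma; 5 of 6 samples). Of 15 genes listed for organelle transport and ions 10 were tested and 1 was higher, Myo7a, the myosin that moves melanosomes in RPE cells, at 50.1 against 26.1 CPM (log2 fold change 1.05 ± 0.14, adjusted p = 0.00449, 6 of 6 samples). Of 14 transcription and signalling genes 5 were tested, and 0 were called.

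By the rule of the largest changes with 1 sign in every sample, the named higher genes were Dab1, Slc4a5, Thbs4, Il17re, Angptl7, Gpr19, Hrasls, Meig1, Upk3bl and Nrcam, with log2 fold changes of 1.76 for Dab1 to 1.19 for Nrcam. Dab1 is an adaptor of reelin signalling, Slc4a5 a bicarbonate transporter, and Angptl7, a secreted protein, was at 299 against 105 CPM. Among the named lower genes were Hist1h1b, Ankrd1, Mmp10, Actg2, Plau, Lce1h, Grem1, Sema3e and Gm42639, with log2 fold changes of -1.96 for Hist1h1b to -1.54 for Gm42639. Hist1h1b is a linker histone made in dividing cells, Ankrd1 a target of stretch signalling, Actg2 a smooth muscle actin, Mmp10 and Plau extracellular proteases, and Grem1 an inhibitor of bone morphogenetic proteins. Of the cell type markers tested, Mgp, a matrix protein of fibroblasts, fell by 1.16 ± 0.25 on the log2 scale (adjusted p = 0.0197, voom-limma). The other fibroblast markers tested, Col1a2 (0.25 ± 0.17), Col1a1 (0.00 ± 0.15) and Dcn (0.00 ± 0.28), were not called. Of the RPE markers tested, Krt18 (-0.03 ± 0.12), Otx2 (0.18 ± 0.16) and Rdh5 (0.19 ± 0.17) were not called. Rlbp1 (0.84 ± 0.26, adjusted p = 0.0868, voom-limma) was higher in 5 of 6 samples but not called, and the RPE list was higher in 3 of 6. Mki67 (-1.14 ± 0.45, adjusted p = 0.183), Top2a (-1.32 ± 0.45, adjusted p = 0.118) and the myeloid marker Cd68 (-0.05 ± 0.31) were not called either. The 6 melanocyte and neural crest markers together were higher in the pigment-detected cells of 6 of 6 samples, at 2.67 to 15.9 CPM against 1.55 to 6.91 CPM. The pericyte list was lower in 6 of 6 samples, at 0 to 3.21 against 2.59 to 16.1 CPM, and the fibroblast, proliferating and endothelial lists were each higher in 1 of 6. The melanocyte and pericyte levels rest on few UMIs, since the pigment-detected class held 5 to 31 cells per sample. The part of these markers in the differences was not tested.

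**Figure D5:**
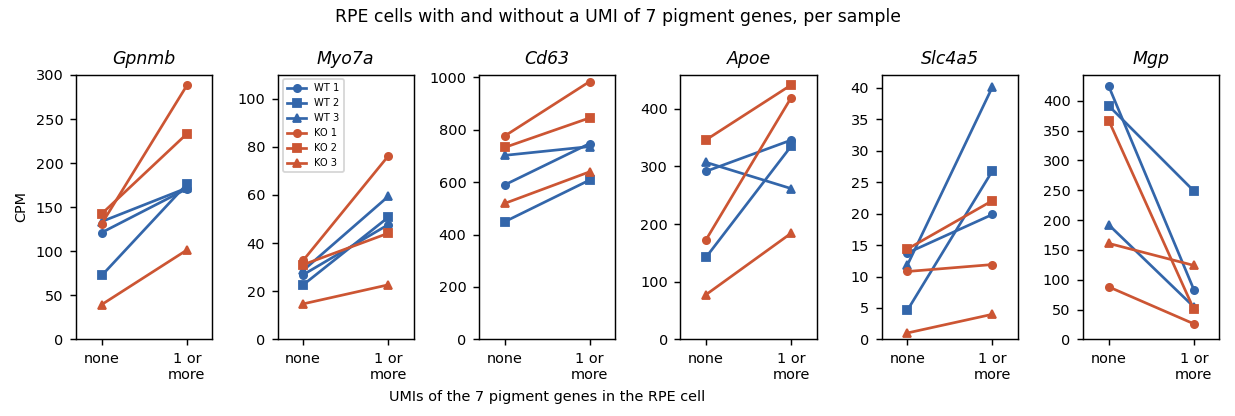
Levels of 6 genes (y axes, CPM, each linear from 0) in RPE cells with no UMI and with 1 or more UMIs of the 7 pigment genes, each line joining the 2 classes of 1 sample (blue Dram2 WT, red Dram2 KO). Gpnmb, Myo7a, Cd63 and Slc4a5 rise and Mgp falls in 6 of 6 samples, and Apoe rises in 5 of 6.

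Within the marker-detected RPE cells alone, where Krt18 was at 793 CPM in pigment-detected and 934 CPM in the other cells and Otx2 at 106 CPM in both, 0.939% of 8837 genes were higher and 0.577% lower. Myo7a rose by 0.95 ± 0.16 (log2, SE; 6 of 6 samples) and Gpnmb by 0.78 ± 0.15 (5 of 6 samples), with adjusted p-values of 0.00819 and 0.0170 in voom-limma. Mgp fell by 1.11 ± 0.21 (adjusted p = 0.0137, voom-limma). The fibroblast markers Dcn (-0.78 ± 0.31, adjusted p = 0.219), Col1a2 (0.31 ± 0.17) and Col1a1 (0.11 ± 0.22) were not called and differed in sign, and the fibroblast list was higher in the pigment-detected cells of 2 of 6 samples. Bace2, a protease that cleaves Pmel, passed the test here (1.14 ± 0.28, adjusted p = 0.0494, voom-limma) but not over all RPE cells (0.19 ± 0.27, adjusted p = 0.768), and its sign was the opposite between cells with 2 or more UMIs of the 10 genes and cells with none (-1.63 ± 0.43, adjusted p = 0.0670). Cd63 (0.25 ± 0.09, adjusted p = 0.159) and Apoe (0.59 ± 0.18, adjusted p = 0.115) did not pass the test there. The classes were not matched in other markers. The melanocyte and neural crest list was at 7.72 to 15.9 CPM in pigment-detected and 1.53 to 5.54 CPM in the other cells, higher in 6 of 6 samples without overlap, and the RPE list was lower in 5 of 6 samples, at 718 to 1426 against 863 to 1418 CPM. The pericyte list was higher in 0 of 6 samples, at 0 to 4.11 against 2.77 to 8.43 CPM, and the endothelial and proliferating lists in 1 of 6. The pigment-detected class here held 5, 24 and 14 cells in the Dram2 WT and 7, 11 and 9 cells in the Dram2 KO replicates. The melanocyte, pericyte and endothelial levels in this class therefore rest on few UMIs. Mki67 (-1.76 ± 0.47, adjusted p = 0.0752) and Top2a (-2.02 ± 0.58, adjusted p = 0.0956) were not called, and the part of these markers in the differences was not tested.

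When all 10 genes were counted and RPE cells with 2 or more of their UMIs were compared with cells that had none, Slc24a5 gave most of the UMIs that set the classes. Here 0.861% of 9755 genes were higher (84) and 1.52% lower (148) in voom-limma, against 184 genes called by edgeR and 181 by DESeq2. The count was 112 without Dram2 WT replicate 2 and 356 without Dram2 KO replicate 1. The named higher genes were Trpc6, Car2, Pla2g7, Upk3bl, Col4a3, Foxd1, Htr2b, Fam189a2, Gpm6a and Pygl, with Trpc6, a calcium-permeable channel, at 55.4 against 20.02 CPM and Car2, a carbonic anhydrase, at 54.7 against 19.5 CPM. The named lower genes were Gpx3, Rian, Serpinf1, Col11a1, Col3a1, Meg3, Dkk2, Sema3e, Tmem45a and Itm2a. Gpx3, an extracellular glutathione peroxidase, fell by 2.43 ± 0.17 and Serpinf1, the secreted factor PEDF, fell by 2.16 ± 0.15 on the log2 scale (adjusted p = 1.1e-05 for both, voom-limma).

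Gpnmb was called in this comparison too, at 137 against 73.5 CPM (log2 fold change 0.90 ± 0.14, adjusted p = 0.00349), as were Cd63 (0.29 ± 0.07, adjusted p = 0.0393) and the RPE retinol dehydrogenase Rdh5 (0.67 ± 0.13, adjusted p = 0.0165). The RPE marker list as a whole was higher in 4 of 6 samples, at 456 to 1132 CPM against 158 to 1841 CPM. Of 18 melanosome genes tested 2 were higher and 0 lower, with a median log2 fold change of 0.03 against -0.01 over all genes, and of 10 transport and ion genes and 4 transcription and signalling genes 0 were called. The fibroblast markers Dcn (-0.99), Mgp (-1.49) and Col1a2 (-0.70) fell, and the 6 fibroblast markers together were lower in the cells with 2 or more UMIs in 6 of 6 samples, at 236 to 853 CPM against 681 to 1451 CPM. The endothelial list was higher in 0, the pericyte list in 1 and the proliferating list in 2 of 6 samples. The melanocyte and neural crest list and the myeloid list were each higher in 5 of 6. The part of these marker transcripts in the other differences was not tested.

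No listed gene of the pigment pathway was called between genotypes in RPE cells. Of 42 that could be tested, 7 for transcription and signalling, 22 for melanosome formation and 13 for transport and ions, 0 were called by voom-limma, beside the 0.0% of all genes given above. The 5 of them with the highest RPE levels were Cd63 (569 CPM; log2 fold change 0.23 ± 0.23), Apoe (166 CPM; -0.39 ± 0.54), Bloc1s1 (135 CPM; 0.10 ± 0.15), Lhx2 (106 CPM; -0.06 ± 0.12) and Dtnbp1 (85.6 CPM; 0.18 ± 0.13), the values after each level being Dram2 KO minus Dram2 WT with its SE. Bloc1s1 and Dtnbp1 are subunits of the BLOC-1 complex, which carries cargo to melanosomes.

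The genes whose levels over the 46 sums of 1 sample and 1 type were most like the summed 10 genes were Lhx2, Ezr, Syndig1, Gm3764, Rgr, Hook1, Cpa4, Ermn, Dab1 and Paqr9, with a Pearson r of 0.91 for Lhx2 and 0.90 for Ezr on the log2(CPM + 1) scale. Rgr, an opsin of the RPE, was at a mean of 45.6 CPM over the RPE sums and at most 2.27 CPM elsewhere. For the 7 genes alone the list was Col4a3, Nfe2l3, Slc1a1, Angptl7, Ermn, Slc4a5, Cldn1, Ildr1, Ttr and A730020E08Rik, with r of 0.92 for Col4a3, a basement membrane collagen, and 0.88 for Nfe2l3, and 1 gene was shared by the 2 lists. With the RPE sums left out the 10 genes' sum, there mostly Slc24a5, had Myef2 at rank 3 with r of 0.82 over 40 sums. The sums share samples and differ in depth, so these values are a description.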

How the data were processed

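UMI counts per gene and cell were deposited by the authors as 1 table with the cell annotation beside it. They were made from 10x Genomics 3′ v2 libraries with exons only, on mm10, and the submitters' processing notes name Cell Ranger 3.1.0 and GRCm38. The deposited counts are not normalised, and the filters on cells, the annotation release and the use of strand were not given in the sources used here. Cell types are those of the authors, who clustered with Seurat. Cell names are running numbers, so barcodes shared between libraries could not be counted, and no doublet caller was run; cells in the top 5% of UMIs were left out as an alternative. UMAP coordinates were not used.

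Symbols and positions came from GENCODE M21 and promoters from the RefSeq table, which held 6 of the 10 genes. CPM (counts of a gene for each 1e6 UMIs of the cells summed) was computed per cell type and sample. Genotypes were compared by voom-limma (limma 3.58.1 with edgeR 4.0.16 TMM and filterByExpr, R 4.3.3) on summed counts in types with 10 or more cells in 2 or more samples per genotype, without covariates. Pigment classes used thinning without replacement to 8000 UMIs (seed 1), at least 5 cells per class and sample, and sample as a block. edgeR quasi-likelihood, DESeq2 1.42.0, other scalings, no filter, batch or replicate number as terms, cell filters (500 genes, 20% mitochondrial UMIs) and leaving out each sample were alternatives. The genotype fits in RPE by voom-limma, edgeR and DESeq2 were tested on simulated counts.

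The pigment genes, marker and pathway lists were chosen with earlier results of these data known. The settings with 7 genes, the keratin and Otx2 classes and the fits without the 2 samples with the most RPE cells were added after seeing the data. Named by rule were the 10 genes, called pathway genes or else the 5 with the highest RPE level, at most 10 called genes per direction, those of largest change with 1 sign in every sample, marker genes tested, and the 10 genes most alike among those at 5 CPM or more in at least 1 sum. Depth was 96808998 to 122746184 UMIs per sample. One gene that the rule selects is not reported here. Floors are 3 counts of the total and cover counting error only. Replicate numbers were not treated as pairs in the main fits. Same-numbered RPE sums correlated at 0.255, -0.515 and -0.341 in their deviations from the genotype means. These values cannot exclude pairing, since the RPE sums also differ in their share of marker-undetected cells.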

Additional observations from a re-analysis of the deposited data

How the results depend on the processing

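No pigment gene was called between genotypes in RPE cells, whole samples or other types under any of the alternatives run. Of 294 recomputed values 248 were labelled the same, 25 moved and 21 changed sign, the latter all uncalled log2 fold changes. A log2 fold change was the same if it kept its sign and stayed uncalled. A count was the same within a set fold range of the main value, and a share or sum within the SD between samples. In RPE cells Mlana (-0.67) turned to 0.28 with edgeR, 0.33 with DESeq2, 1.17 with batch as a covariate, 0.51 without both Dram2 WT replicate 2 and Dram2 KO replicate 3, and 0.15 in marker-detected cells, and ran from -1.36 to 1.19 with 1 sample left out, with -1.88 when the top 5% of cells by UMIs were left out. Slc45a2 (-0.11) turned to 0.48 with edgeR, 0.62 with DESeq2, 0.0522 with no filter, 1.55 with batch, 0.66 without both samples and 0.50 in marker-detected cells, and ran from -1.09 to 1.61. Mitf (-0.65) turned to 0.74 with batch and ran from -1.47 to 0.75. Batch as a covariate nearly repeats the fit without Dram2 KO replicate 3, the only sample of batch 2. Slc24a5 ran from -0.0594 to 0.177 in RPE, and Mitf over the whole sample from -0.0294 to 0.0912. Tyr ran from -1.73 to -0.33 with a lowest adjusted p of 0.287 (voom-limma) over the 13 of 18 settings in which it was tested, and fell under the filter on low counts without Dram2 WT replicate 2, without Dram2 WT replicate 3, without both samples, with the top 5% of cells left out and in marker-detected cells. With 1 sample left out of 3, the spread was pooled over the remaining samples.

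With replicate number as a replicate block, Slc45a2 in RPE was at 0.24 and Tyr at -1.17, and 0 pigment genes were called, but the count over all genes went from 113 to 0 in Fibroblast proliferating, 33 to 2 in Fibroblast 2, 1 to 0 in Fibroblast and in Pericyte, and 2 to 32 in Myeloid cells. The labels do not say that the numbers pair the samples. The 232 genes called between cells with 2 or more UMIs of the 10 genes and cells with none became 0 with no replicate block for the sample (625 at an unadjusted p under 0.05, voom-limma), 5030 of 27875 genes with no filter on low counts, 151 without the top 5% of cells by UMIs and 112 to 356 with 1 sample left out. Another contrast, 1 or more UMIs of the 7 genes against none, called 333 genes, and 134 within marker-detected cells. The cause was not tested for the no-filter count. The mean share of RPE cells with 2 or more of the 10 genes (15.5%) was 36.3% with no thinning, 6.36% at 4000 UMIs and 1.38% for the 7 genes. Of the 10 genes most alike in pattern, 3 were shared with a pseudocount of 0.1, 0 with rank correlation, 0 with the RPE sums left out and 1 for the 7 genes. Low depth limits Tyrp1, Pmel, Oca2, Gpr143 and Dct, which had 11 to 57 UMIs in all RPE cells, and their genotype differences could not be resolved at this depth.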
